A study of Mus musculus with 6 samples.

Results

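Histone genes were examined in brains of mouse embryos in which Nestin Cre removed REST and p53 from neural progenitors and the cells they give rise to, against brains of control littermates. The members were all genes whose older symbol begins with Hist1h, Hist2h, Hist3h, Hist4h, H1f, H2af or H3f, which gave 65 genes, read by 72 probes, of 16593 named genes and 25696 probes on the array. They comprised 52 genes of the replication-dependent class (57 probes), 7 variant genes (9 probes) and 6 genes known from the germ line (6 probes). Total RNA from 6 brains at E12.5, all of the C57/BL6 strain, was hybridised to Illumina mouse reference BeadChips, which carry beads with gene-specific probes, at 1 array for each brain.

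The 3 knockout brains were Nestin Cre+ on a background of Rest GTi/GTi with p53 fl/fl, and the 3 control brains had the same background without Cre. GTi is an inverted gene trap that leaves Rest splicing intact until Cre turns it round, and fl/fl denotes 2 floxed copies of the p53 gene. Both groups therefore carried the same trap and floxed alleles. They differed at once in the Cre transgene, the loss of REST and the loss of p53, whose parts cannot be told apart here. Cre was driven by the Nestin promoter, so that cells outside the Nestin lineage, such as those of blood, vessels and meninges, were meant to keep both genes. Which cells lost the genes in knockout brains was not measured here. Because whole brains were measured, fewer cells of a type and less RNA per cell cannot be told apart. The labels call the arrays biological replicates and give neither litter, sex nor slide. Xist, the RNA of the inactive X chromosome, read 12.16, 6.53 and 6.53 by its brighter probe on the knockout arrays, against 12.13, 6.61 and 12.31 on the control arrays, on the log2 scale. It was thus high on 1 knockout and 2 control arrays, and the part of sex in the values that follow was not tested.

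Histones package DNA into nucleosomes, in which DNA is wound around the core proteins H2A, H2B, H3 and H4, while the linker histone H1 sits where the DNA enters and leaves. Replication-dependent histone genes lie in clusters, have no introns, and are transcribed in S phase, when dividing cells need new histones behind the replication fork. Their mRNAs normally end in a stem-loop bound by SLBP rather than in a poly(A) tail. The authors made cDNA from total RNA, and how it was primed is not stated. Whether the signals of these genes came from stem-loop mRNAs or from tailed forms was not tested. Variant histones such as H3.3, H2A.Z and macroH2A are encoded by genes outside the clusters, whose mRNAs mostly have poly(A) tails. They are made through and outside the cell cycle, and replace the standard proteins at particular places. H2ax, the gene for H2A.X, was counted among the variants by its symbol alone. At this stage the brain is rich in dividing progenitors, and it also holds young neurons that have left the cycle.

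Promoters of a pair of genes from each class are shown, because the classes are known to be switched on by different arrangements of promoter motifs. The sequences are from RefSeq, build GRCm38.p6, and run 5′ to 3′ over the 200 bases before the annotated start. H1f2 (older name Hist1h1c) and H3c8 (Hist1h3g) are the replication-dependent genes whose knockout arrays lay above all control arrays with an unadjusted p under 0.05. H3f3b and H2az1 (H2afz) are bright variant genes that differed little between genotypes. Capitals mark the CCAAT box (letters CCAAT), the TATA box (letters TATAAA, or those of the variant form TATATA) and the octamer (letters ATTTGCAT), each searched on both strands. None of these motifs contains another, and where 2 matches of the TATA box overlap, as in H1f2, the whole stretch is in capitals.
H1f2, chr13:23738607-23738806, + strand: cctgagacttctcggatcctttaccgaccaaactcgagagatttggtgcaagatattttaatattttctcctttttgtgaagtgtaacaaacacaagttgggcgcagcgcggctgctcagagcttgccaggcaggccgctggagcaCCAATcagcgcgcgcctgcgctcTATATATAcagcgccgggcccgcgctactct
H3c8, chr13:23535218-23535417, + strand: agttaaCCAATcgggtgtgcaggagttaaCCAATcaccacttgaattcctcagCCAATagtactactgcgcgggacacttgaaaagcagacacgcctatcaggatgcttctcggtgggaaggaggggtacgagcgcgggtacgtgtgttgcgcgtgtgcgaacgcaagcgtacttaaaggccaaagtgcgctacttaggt
H3f3b, chr11:116024505-116024704, - strand: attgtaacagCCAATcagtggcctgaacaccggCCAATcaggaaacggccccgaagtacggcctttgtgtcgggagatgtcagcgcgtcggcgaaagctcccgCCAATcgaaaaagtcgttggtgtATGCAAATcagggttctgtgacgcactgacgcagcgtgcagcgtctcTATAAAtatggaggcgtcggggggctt
H2az1, chr3:137864287-137864486, + strand: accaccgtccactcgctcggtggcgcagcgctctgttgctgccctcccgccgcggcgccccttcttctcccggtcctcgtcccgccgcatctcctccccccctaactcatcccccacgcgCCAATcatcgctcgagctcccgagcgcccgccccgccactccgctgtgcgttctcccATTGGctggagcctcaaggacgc

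Of the 52 replication-dependent genes, 47 had a promoter in the RefSeq table, at 48 start sites, and of the 7 variant genes 6 had one. A CCAAT box was found at 39 of the 48 replication-dependent starts (81.2%), at 4 of the 6 variant starts (66.7%) and at 9641 of all 32851 starts in the table (29.3%). A TATA box was found at 25 replication-dependent starts (52.1%), at 1 variant start (16.7%) and at 12.7% of all starts. The octamer was found at 12 replication-dependent starts (25%), at 1 variant start, that of H3f3b, and at 1.38% of all starts. All 12 were starts of H2A or H2B genes, and most replication-dependent starts without a CCAAT box were those of H4 genes. Such matches describe the letters only and do not show that a factor binds there.

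Between 13416 and 13889 of the 25696 probes had a detection p-value under 0.05 on each array (52.2% to 54.1%), and 13755 probes reached this on at least 3 arrays and were tested. The single Rest probe was above background on no array, so that it could not check the genotype labels. The array of knockout replicate 2 differed most from the rest, with a score of 40.7 on principal component 1 against -14.8 to -0.84 for the other 5 arrays. On that array the median log2 level relative to the control mean was -2.79 for 8 tested markers of mesenchyme and meninges (9 in the list), -0.83 for 8 of 11 markers of endothelium and pericytes, and -1.65 for 7 of 7 choroid plexus markers. The summed level of the mesenchyme and meninges markers had a range of 1385 to 10847 units of normalized intensity over knockout arrays and of 7987 to 12796 over control arrays, and Aldh1a2 of that list was not above background. Mesenchyme and meninges markers also had a median of -0.63 on knockout replicate 1 and 0.31 on knockout replicate 3. Between genotypes the median differences were -1.05 for mesenchyme and meninges, -0.34 for endothelium and pericytes and -0.66 for choroid plexus. At an unadjusted p under 0.05 in limma, 2 of 10 (20%), 4 of 12 (33.3%) and 0 of 10 (0%) of their probes were lower. The share over all 13755 probes was 2.34%. No marker passed an adjusted p of 0.05 in limma. Markers of brain progenitors (7 of 8 tested) had a median difference of 0.12 and those of young neurons (9 of 10) one of 0.08. On knockout replicate 2 the median was 0.40 for young neurons, against -0.08 to 0.02 on the other 5 arrays. On the same array it was 0.38 for forebrain and midbrain identity and 0.08 for brain progenitors. It was 0.10 there for microglia and macrophages and -0.77 for erythroid cells.

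All values below are normalized log2 intensities, n = 3 arrays for each genotype, and all differences are knockout minus control on the log2 scale. In all, 52 histone probes were tested, for 42 replication-dependent genes (43 probes) and all 7 variant genes (9 probes). The 20 probes left out comprised all 6 germ line probes, 4 of the 5 replication-dependent H1 probes, 1 H2A, 6 H2B, 2 H3 and 1 H4 probe. Among those left out were H1f1, H1f3, H1f4 and H1f5, which encode 4 of the linker histones of dividing cells, and H2bu1-ps, which RefSeq lists as a pseudogene. Replication-dependent genes of a family encode near-identical proteins from similar sequences, so a probe may also have bound transcripts of its neighbours, and probes of a family are not independent of each other.

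No histone probe passed an adjusted p of 0.05 in limma, where the smallest adjusted p over the 52 probes was 0.98, and neither did any other probe tested (0%; smallest adjusted p 0.383). At an unadjusted p under 0.05, 3 histone probes were higher in knockout brains and 1 was lower (5.77% and 1.92% of 52), against 310 higher (2.25%) and 322 lower (2.34%) of all 13755 probes. The knockout arrays all lay above the control arrays for 3 histone probes (5.77%), against 4.68% of all probes, and all below for 1 (1.92%), against 4.62%. These counts are small, and H3c8, among the higher probes in both, was above background on 1 control array alone. Of the 50 histone probes above background on all 6 arrays, 2 were higher and 2 lower at an unadjusted p under 0.05, against 2.18% and 2.24% of all 12027 such probes.

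Median differences over genes, each read by its brightest tested probe, were 0.08 for the 42 replication-dependent genes, 0.04 for the 7 variant genes and -0.01 for all 9408 genes. Differences ranged from -0.38 to 0.82 among replication-dependent genes and from -0.31 to 0.10 among variant genes. Of the replication-dependent genes, 28 had a higher mean in knockout brains and 14 a lower one (66.7% higher), and of the variant genes 5 were higher and 2 lower, against 48.7% higher among all genes. The pooled SD within groups, as a median over probes, was 0.27 for replication-dependent probes, 0.17 for variant probes and 0.22 for all probes. The difference in spread between the classes was not tested.

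**Figure D1:**
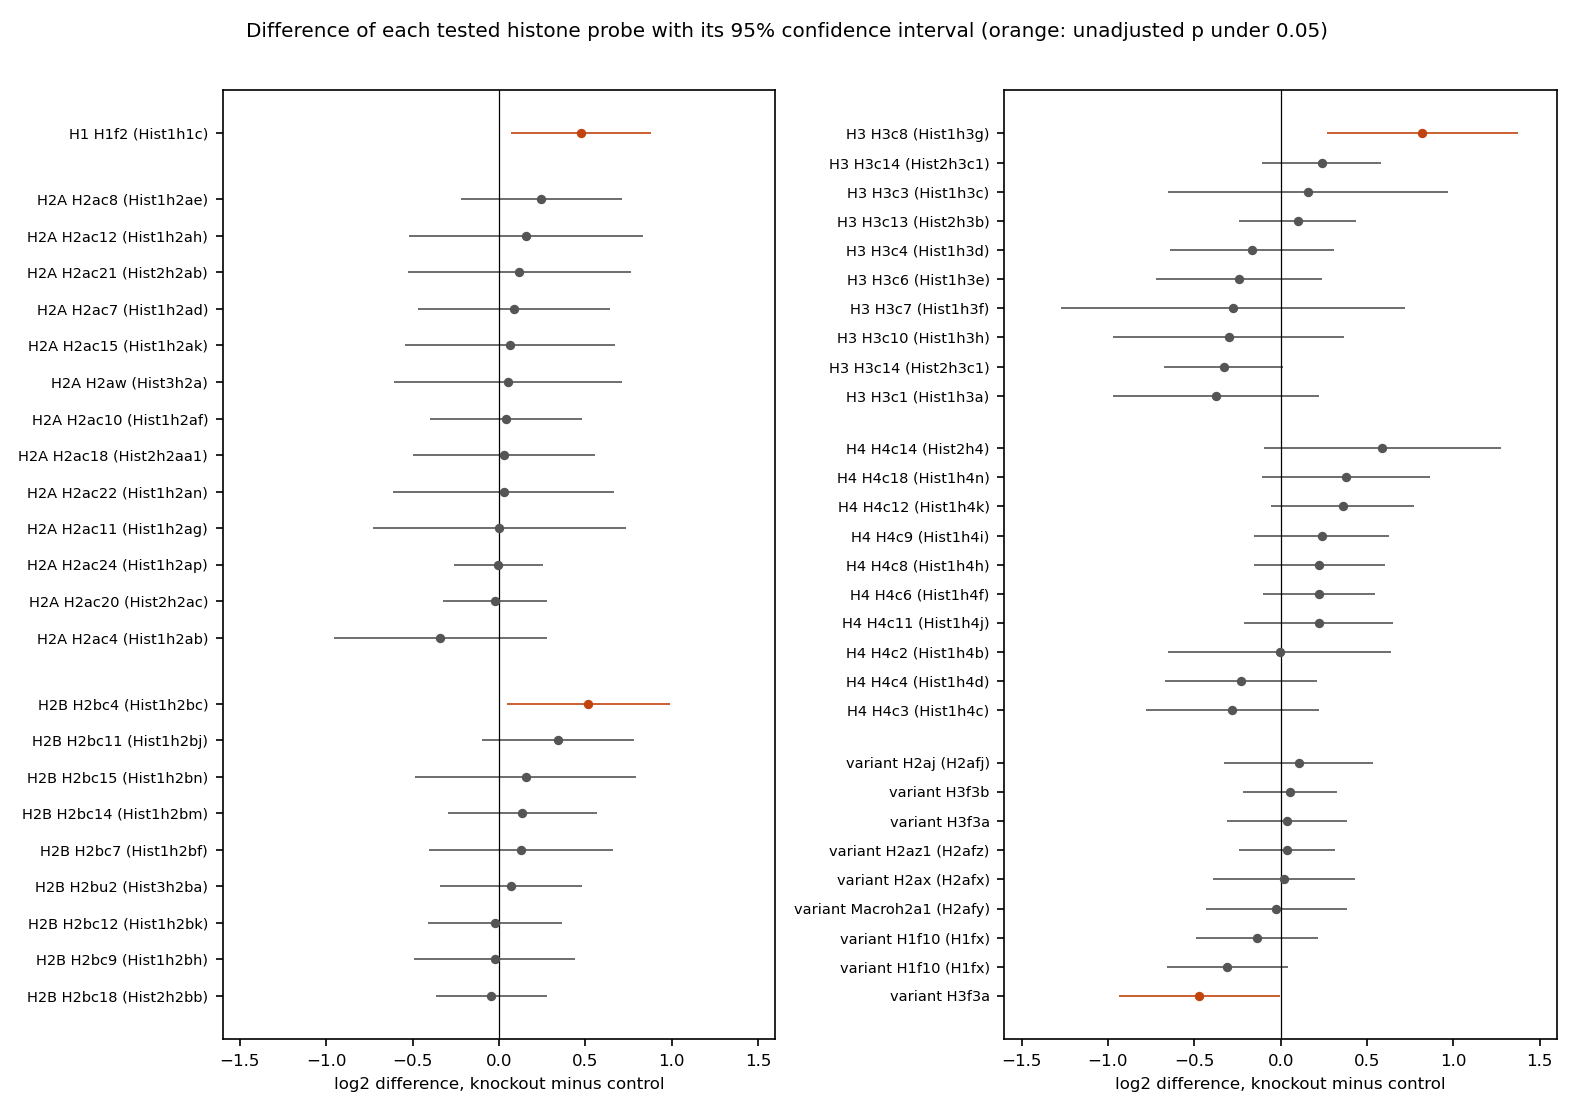
Each point is the log2 difference, knockout minus control, of 1 tested histone probe, with its 95% confidence interval from limma, grouped by family. The intervals of 48 of the 52 probes include 0, and the 4 in orange had an unadjusted p under 0.05, with none past an adjusted p of 0.05.

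Among linker histones, H1f2 was the only replication-dependent member tested. It encodes H1.2, one of the main linker histones of somatic cells. Its log2 intensity was 11.27, 10.97 and 11.34 on the knockout arrays, against 10.51, 10.69 and 10.97 on the control arrays. The lowest knockout array and the highest control array, knockout replicate 2 and control replicate 3, were all but level, and the groups did not overlap. The difference was 0.47 (SE 0.17, 95% interval 0.07 to 0.88, unadjusted p 0.0279, adjusted p 0.999 in limma), a 1.39-fold higher mean. The unadjusted p was above 0.05 without knockout replicate 1 or 3 and without control replicate 1 or 2, with differences of 0.37 to 0.60 over all 6 omissions.

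H1f10 (H1fx), the replication-independent linker histone H1X, ran the other way on both of its probes, short of the threshold. Its brighter probe gave 13.43, 13.16 and 13.14 on the knockout arrays, against 13.36, 13.70 and 13.59 on the control arrays. Knockout replicate 1 lay above control replicate 1, so that the groups overlapped. The difference was -0.31 (SE 0.15, 95% interval -0.66 to 0.04, unadjusted p 0.0754). The unadjusted p was 0.0377 without background correction, 0.0194 with trend and robust variance in limma, and 0.042 without knockout replicate 1, where the difference was -0.40. It was 0.0567 with normexp at an offset of 50 and 0.0821 without the filter on dim probes. With the replicate number as a block it was 0.147, and over probes above background on all 6 arrays 0.0661. The dimmer probe gave a difference of -0.14 (SE 0.15), at 11.79 ± 0.05 in knockout and 11.93 ± 0.23 in control brains (SD).

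Probes for 13 replication-dependent H2A genes were tested, several of them close to the top of the intensity scale. The one closest to it, for H2ac24 (Hist1h2ap), gave 16.05, 16.12 and 16.02 on the knockout arrays, against 16.02, 16.08 and 16.10 on the control arrays. The highest value was 16.13 on every array, and quantile normalization gives all arrays the same top. The highest deposited intensity was already the same on all arrays (71775.39), before the normalization used here. The deposited values may thus have been normalized earlier, which was not tested. A difference at the top could be compressed. The difference of the H2ac24 probe was -0.0044 (SE 0.11, 95% interval -0.26 to 0.25). H2ac4 (Hist1h2ab) had the most negative difference of the family, at 8.50, 7.73 and 8.67 on the knockout arrays against 8.81, 8.67 and 8.44 on the control arrays. Its difference was -0.34 (SE 0.26, unadjusted p 0.231), with knockout replicate 2 lowest and the other arrays intermixed. Over the 13 genes the median difference was 0.04, with 10 higher and 3 lower, none with an unadjusted p under 0.05.

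H2B genes were read by 9 tested probes. H2bc4 (Hist1h2bc) had the largest difference among them. It gave 12.12, 11.54 and 11.76 on the knockout arrays, against 11.11, 11.19 and 11.57 on the control arrays. Control replicate 3 lay just above knockout replicate 2, and the other knockout arrays lay above all controls. The difference was 0.52 (SE 0.20, 95% interval 0.05 to 0.99, unadjusted p 0.0355, adjusted p 0.999 in limma), a 1.43-fold higher mean. The other H2bc4 probe, above background on 2 knockout arrays and no control array, was not tested. It read 6.99, 6.46 and 6.51 on the knockout arrays and 5.83, 5.76 and 6.26 on the control arrays. Its control values were at background, so it gives no support for a difference. As for H1f2, the p of the tested probe was above 0.05 without knockout replicate 1 or 3 and without control replicate 1 or 2. In RefSeq, H2bc4 and H1f2 lie close together on chromosome 13, with H1f6, H4c3 and Hfe the protein-coding genes between them. H4c3, the histone H4 gene in that stretch, had a difference of -0.28 (SE 0.21, unadjusted p 0.226), and without knockout replicate 1 one of -0.47 (unadjusted p 0.0476). Over the 9 H2B genes the median difference was 0.13, with 6 higher and 3 lower.

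Among H3 genes, H3c8 had the largest difference, and with neqc the largest of all tested histone probes. It gave 7.21, 7.15 and 7.16 on the knockout arrays, against 5.998, 6.89 and 6.18 on the control arrays. The knockout arrays were nearly level with each other and above all controls, while control replicate 2 approached them. The difference was 0.82 (SE 0.23, 95% interval 0.27 to 1.37, unadjusted p 0.0100, adjusted p 0.981 in limma). The size depended on the background correction, at 0.29 with none and 0.47 with normexp at an offset of 50, in both cases below that of H2bc4 (0.48 and 0.50). The probe was dim, above background on 3 knockout arrays and 1 control array. It thus passed the filter on dim probes only through the knockout arrays, where it was high, and its p gives no support for a difference.

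Other H3 genes had smaller or negative differences. H3c1 (Hist1h3a) had the most negative value, with 11.04, 10.32 and 11.08 on the knockout arrays and 11.41, 11.31 and 10.86 on the control arrays, a difference of -0.38 (SE 0.25, unadjusted p 0.178). H3c10 (Hist1h3h) had a difference of -0.30 (SE 0.28), H3c7 (Hist1h3f) one of -0.27 (SE 0.42) by its tested probe and H3c6 (Hist1h3e) one of -0.24 (SE 0.20). The groups of all 4 genes overlapped. H3c14 (Hist2h3c1) was read by 2 probes that went opposite ways. The dimmer gave 7.41, 7.31 and 7.60 on the knockout arrays, all below 7.68, 7.97 and 7.66 on the control arrays, a difference of -0.33 (SE 0.15, unadjusted p 0.0578). The difference was -0.15 without background correction. Its unadjusted p was 0.0389 without knockout replicate 3 and 0.0499 when probes above background on all 6 arrays alone were tested. The brighter gave 14.35, 14.16 and 14.03 on the knockout arrays against 13.95, 13.78 and 14.10 on the control arrays, a difference of 0.24 (SE 0.14, unadjusted p 0.145, or 0.0481 with trend and robust variance). H3c13 (Hist2h3b), whose probe was the brightest of the family, read 14.33 ± 0.14 in knockout and 14.23 ± 0.16 in control brains (SD), a difference of 0.10 (SE 0.14). The median difference of the 9 H3 genes was -0.17, with 4 higher and 5 lower.

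H4 genes had a median difference of 0.22 over 10 genes, 7 higher and 3 lower, with no unadjusted p under 0.05. H4c12 (Hist1h4k) gave 10.12, 9.56 and 9.68 on the knockout arrays, against 9.31, 9.56 and 9.42 on the control arrays. The lowest knockout value was barely above the highest control value, with a difference of 0.36 (SE 0.17, unadjusted p 0.0798). H4c14 (Hist2h4), a dim probe above background on 3 knockout arrays and 1 control array, gave 6.85, 7.27 and 7.46 on the knockout arrays against 6.37, 7.21 and 6.24 on the control arrays. Its difference was 0.59 (SE 0.29, unadjusted p 0.0814), and control replicate 2 lay within the knockout range. Without control replicate 2 the difference was 0.89, with an unadjusted p of 0.0064, and without background correction it was 0.21 over all arrays (unadjusted p 0.121). Like H3c8, it was tested only through its values on the knockout arrays. H4c18 (Hist1h4n) had a difference of 0.38 (SE 0.20, unadjusted p 0.108) and H4c6 (Hist1h4f), the brightest H4 probe, one of 0.22 (SE 0.14). H4c4 (Hist1h4d) was 0.23 lower in knockout brains, with a difference of -0.23 (SE 0.18).

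The plot of values on each array shows these probes beside the variant probes.

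**Figure D2:**
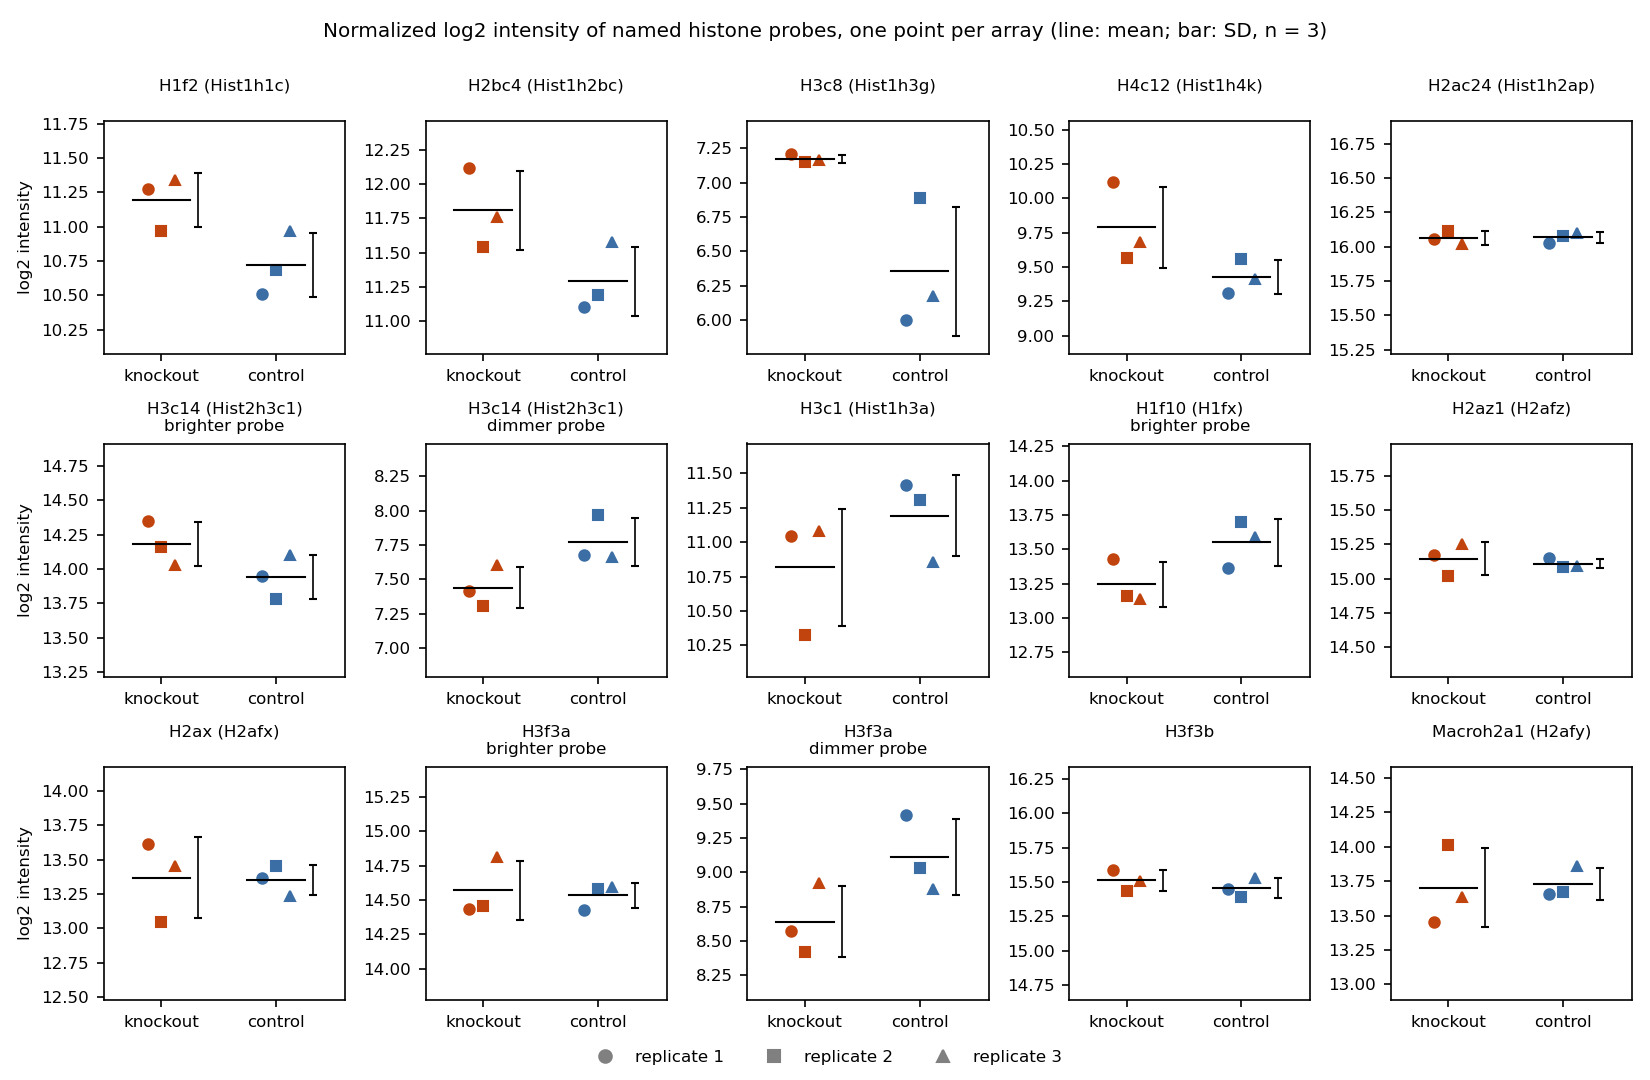
Normalized log2 intensity (vertical axis, 1.7 log2 units in every panel) of 15 named histone probes, with knockout arrays left of control arrays, the mean as a line and the SD as a bar. H1f2, H3c8 and H4c12 have all knockout arrays above the control arrays, the dimmer H3c14 probe has them below, and the other probes overlap.

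Variant histone probes were above background on all 6 arrays. H3f3a and H3f3b encode the same protein, H3.3, which is deposited outside replication. H3f3b gave 15.59, 15.43 and 15.51 on the knockout arrays, against 15.44, 15.39 and 15.53 on the control arrays, a difference of 0.06 (SE 0.11, 95% interval -0.22 to 0.33). The brighter H3f3a probe gave 14.44, 14.46 and 14.81 on the knockout arrays, against 14.43, 14.58 and 14.59 on the control arrays, a difference of 0.04 (SE 0.15, 95% interval -0.31 to 0.38). Both genes overlapped between groups.

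The dimmer H3f3a probe was the 1 histone probe with an unadjusted p under 0.05 in the downward direction. It gave 8.57, 8.42 and 8.93 on the knockout arrays, against 9.42, 9.04 and 8.88 on the control arrays. Control replicate 3 lay below knockout replicate 3, so that the groups overlapped. The difference was -0.47 (SE 0.20, 95% interval -0.94 to -0.0026, unadjusted p 0.0490, adjusted p 0.999 in limma), or -0.31 without background correction. Its p was above 0.05 when limma modelled the variance with trend and robust set (0.0511) and when any array other than knockout replicate 3 or control replicate 3 was left out, and the brighter probe of the gene did not share the difference.

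Variants of H2A likewise overlapped between the groups. H2az1, which encodes H2A.Z, gave 15.17, 15.02 and 15.25 on the knockout arrays, against 15.15, 15.09 and 15.10 on the control arrays, a difference of 0.04 (SE 0.12, 95% interval -0.24 to 0.32). H2ax encodes H2A.X, whose phosphorylated form marks DNA breaks. Its transcript read 13.61, 13.04 and 13.45 on the knockout arrays, against 13.37, 13.45 and 13.24 on the control arrays, a difference of 0.02 (SE 0.17, 95% interval -0.39 to 0.43). Knockout replicates 1 and 2 gave the highest and the lowest value of all arrays. The array measured the transcript and gives no value for the phosphorylated protein.

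Macroh2a1 (H2afy) encodes macroH2A1, a large H2A variant of repressed chromatin, and gave 13.45, 14.02 and 13.64 on the knockout arrays, against 13.65, 13.67 and 13.86 on the control arrays. Its difference was -0.03 (SE 0.17, 95% interval -0.43 to 0.38). H2aj (H2afj), the gene for the H2A variant H2A.J, gave 9.13, 9.73 and 9.32 on the knockout arrays, against 9.44, 9.29 and 9.14 on the control arrays, a difference of 0.10 (SE 0.18, 95% interval -0.33 to 0.54). For both genes the highest value of all arrays came from knockout replicate 2. The intervals of the H3f3b, H2az1, H2ax and Macroh2a1 probes and of the brighter H3f3a probe reach as far as 0.32 to 0.43 from 0.

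In each core family the range among the knockout arrays exceeded the median difference between genotypes, and the arrays were not ordered alike in all families. For the H2A genes the median on each array, relative to the control mean, was -0.14, 0.45 and -0.03 on the knockout arrays and -0.24, -0.08 and 0.32 on the control arrays. For the H2B genes it was 0.44, -0.23 and 0.13 on the knockout arrays and 0.03, 0.01 and -0.11 on the control arrays. Knockout replicate 2 was thus the highest knockout array for H2A and the lowest for H2B, and control replicate 3 the highest and the lowest of the controls. For the H3 genes the medians were 0.18, -0.59 and -0.06 on the knockout arrays and 0.12, 0.01 and -0.17 on the control arrays. For the H4 genes they were 0.30, -0.03 and 0.38 on the knockout arrays and -0.10, 0.11 and -0.07 on the control arrays. Medians of all genes stayed between -0.01 and 0.01 on the 6 arrays, and those of the variant genes between -0.10 and 0.05.

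**Figure D3:**
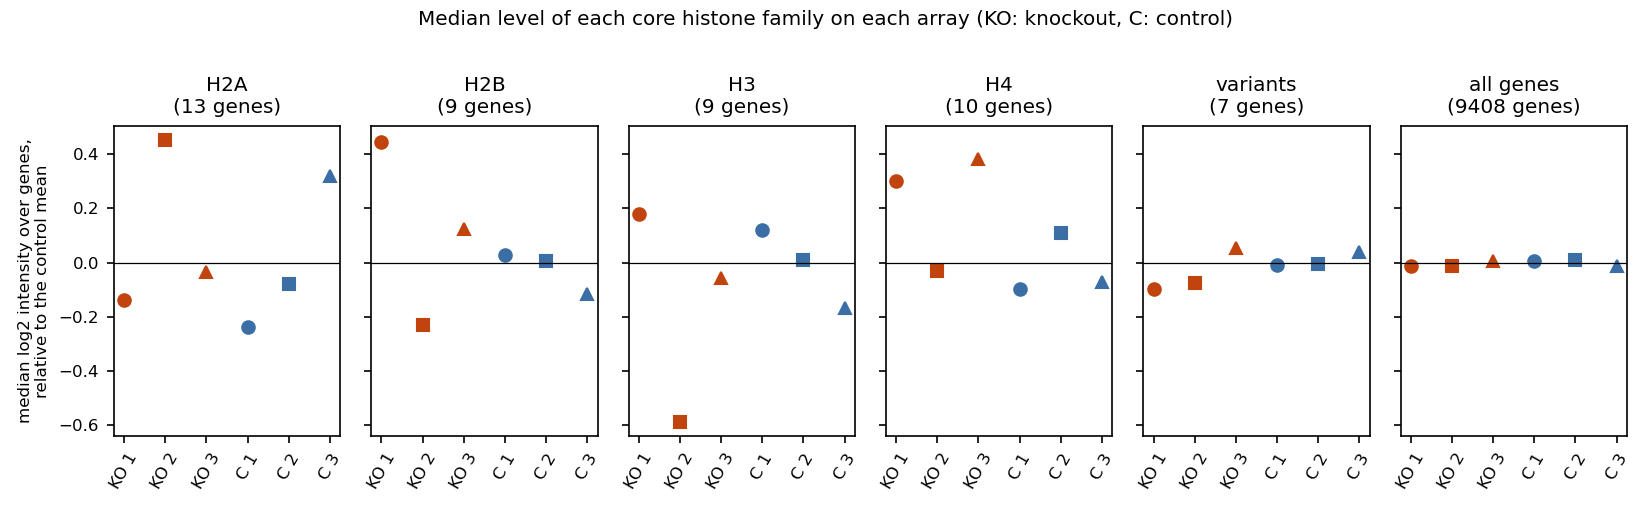
Each point is the median log2 intensity over the genes of a family on 1 array, relative to each gene's control mean, with knockout arrays (KO, orange) left of control arrays (C, blue). Knockout replicate 2 reads 0.45 for H2A and -0.59 for H3, while all genes lie within 0.01 of 0.

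Single probes were ordered in a like way. Of the 13 H2A probes, knockout replicate 2 was the highest knockout array for 11 and control replicate 3 the highest control array for 11. Probes of these similar genes may share transcripts.

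Of the 9 H2B probes, knockout replicate 2 was the lowest knockout array for 8, and knockout replicate 1 was the highest of all 6 arrays for 9. Knockout replicate 2 was the lowest knockout array for 8 of 10 H3 probes and 9 of 10 H4 probes. Over all probes tested it was the lowest knockout array for 36.3% and the highest for 36.5%. The part of this array's other features in these values was not tested. Such features are its low mesenchyme, vessel and erythroid markers and its higher markers of young neurons.

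Without knockout replicate 2, 10 of the 52 histone probes had an unadjusted p under 0.05, all higher in knockout brains (19.2%), against 2.97% of all probes in that direction in the same fit. They were H1f2, H2bc4, H2bc11, H2bc15, H3c3, H3c8, H4c9, H4c11, H4c12 and H4c18, with differences of 0.39 to 0.83, and the smallest adjusted p was 0.715 in limma. None was an H2A gene, and in this fit 12 of 13 H2A probes were lower in knockout brains, with a median difference of -0.09, while 9 of 9 H2B probes were higher, with a median of 0.25, and 8 of 10 H4 probes were higher, with a median of 0.36. Knockout replicate 2 was the lowest knockout array for most H2B, H3 and H4 probes and the highest for most H2A probes. Leaving it out therefore moved most H2B, H3 and H4 differences up and most H2A differences down. With all 6 arrays, 6 of 9 H2B and 7 of 10 H4 probes were already higher, with medians of 0.13 and 0.22. Of the H2A probes, 10 of 13 were higher there, with a median of 0.04. The larger counts without this array give no support for a difference between genotypes. H3c8 passed the filter only through the knockout arrays, and probes of a family are not independent. With knockout replicate 2 left out, 2 knockout arrays stood against 3 controls, and 1 histone probe was called higher when control replicate 1 was left out in its place.

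By position, the Hist1 cluster on chromosome 13 held 41 of the replication-dependent genes on the array, 33 of them tested, with a median difference of 0.09 and 21 higher against 12 lower. It held 33 of the 43 tested replication-dependent probes, among them the 3 with an unadjusted p under 0.05. The Hist2 cluster on chromosome 3 had a median difference of 0.10 over 7 genes, 5 higher and 2 lower. The 2 tested genes of the Hist3 cluster on chromosome 11, H2aw (Hist3h2a) and H2bu2 (Hist3h2ba), had differences of 0.05 and 0.07.

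Genes that supply histone mRNAs and histones were read in 3 lists. In the list of histone mRNA synthesis and 3′ processing, 18 of 21 genes on the array were tested, 8 higher and 10 lower, with a median difference of -0.03 and none with an unadjusted p under 0.05. Slbp, for the stem-loop binding protein, and Casp8ap2, for a component of the bodies in which histone mRNAs are made, were not above background on enough arrays, and Npat was not analysed here. E2f1, for a transcription factor of S phase entry, had a difference of 0.10 (SE 0.12).

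Histone chaperones carry new histones to DNA. Of 26 tested genes in their list, 13 were higher and 13 lower, with a median difference of -0.00013, and none had an unadjusted p under 0.05 by its brightest probe. Hira, for the chaperone that deposits H3.3, had the largest positive difference, at 9.63, 9.85 and 9.87 on the knockout arrays against 9.66, 9.35 and 9.32 on the control arrays. Control replicate 1 lay above knockout replicate 1, and the difference was 0.34 (SE 0.15, unadjusted p 0.0543). Genes for chaperones of new H3 and H4 lay nearer to 0. The differences were 0.14 (SE 0.21) for Asf1a, 0.05 (SE 0.17) for Asf1b, 0.11 (SE 0.16) for Chaf1a and 0.0078 (SE 0.17) for Chaf1b. Cenpa, for the H3 variant of centromeres, read 14.88 ± 0.12 in knockout and 14.97 ± 0.06 in control brains (SD), a difference of -0.09 (SE 0.12).

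S phase genes, whose products copy DNA at the time when replication-dependent histones are made, were tested for 30 of 32 on the array, 14 higher and 16 lower, with a median difference of -0.01. Mcm3, for a subunit of the replicative helicase, was the 1 with an unadjusted p under 0.05. Of the 50 probes of the list, 1 was higher at that threshold (2%), against 2.25% of all probes. The knockout arrays lay above all control arrays for 1 of the 50 (2%), against 4.68% of all probes. Mcm3 gave 10.53, 10.60 and 10.61 on the knockout arrays, against 10.38, 10.29 and 10.15 on the control arrays, with no overlap. The difference was 0.30 (SE 0.12, unadjusted p 0.0385, adjusted p 0.999 in limma). Mcm2, for another subunit, had a difference of -0.03 (SE 0.12) and Pcna, for the sliding clamp, one of 0.16 (SE 0.26). The median of the list was 0.02, -0.21 and 0.13 on the knockout arrays and -0.03, -0.0047 and 0.04 on the control arrays, so that knockout replicate 2 was lowest here too, and without it the median difference was 0.11.

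**Figure D4:**
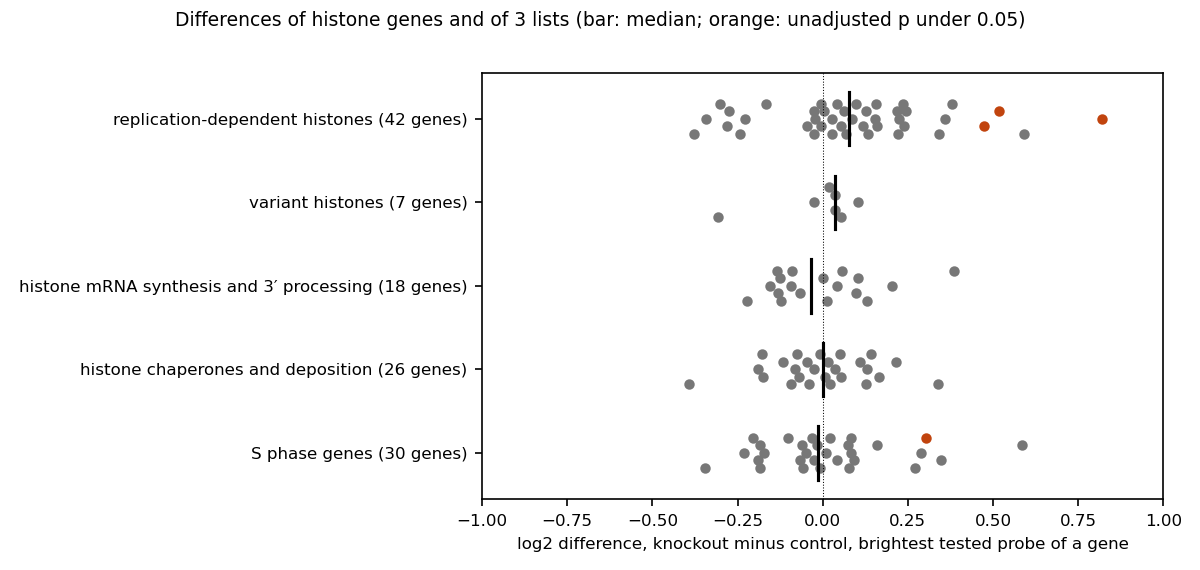
Each point is the log2 difference, knockout minus control, of 1 gene by its brightest tested probe, with the median of each list as a black bar. Medians lie between -0.03 and 0.08, and 3 replication-dependent histone genes and Mcm3 are the points with an unadjusted p under 0.05.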

How the data were processed

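The authors scanned Illumina Ref8 BeadChips, read them with BeadStudio 3.0 and applied quantile normalization with lumi. The deposited table holds linear intensity values and a detection p-value for each probe, which the authors' software derived from negative controls; the other table, with the same arrays, was not used here. In 25699 lines, 2 ID cells were blank and later IDs stood 2 lines too low, so the blanks were dropped and IDs paired with values in order (25696 probes). Correlations of adjacent probes of a gene were highest with this pairing (r = 0.473 over 5962 pairs, against 0.258 as deposited). Symbols came from the platform annotation; older names were recovered from RefSeq synonyms of the same gene identifier, since the annotation already carried several current symbols.

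Intensity was corrected, normalized and turned to log2 with neqc (limma 3.58.1, R 4.3.3, offset 16). The highest deposited intensity was the same on all arrays, so these values may already have been normalized, which was not tested. Probes with a detection p-value under 0.05 on at least 3 of 6 arrays were tested with lmFit and eBayes, two-sided, with Benjamini-Hochberg adjustment over all 13755. The fit was tested on simulated data. Named were all variant probes, the 6 replication-dependent probes of smallest p in each direction, the brightest probe of each family, and every probe with an unadjusted p under 0.05. Members and lists were chosen with earlier results of these data known. Alternatives covered background correction, filters, variance model, test, replicate block, probe names and omitted arrays. The number of arrays limits the precision.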

Additional observations from a re-analysis of the deposited data

How the results depend on the processing

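The number of probes past an adjusted p of 0.05, 0 here (with 632 at an unadjusted p under 0.05), became 1 without background correction, 1 with normexp at an offset of 50 and 1 with the trend and robust options, in each case no histone probe. The methods' t-test was run on log2 of the deposited intensities, with no background correction or quantile normalization here, so more than the test differed. It called 0 of 13755 probes after Benjamini-Hochberg and 624 at an unadjusted p under 0.05. It left 1 histone probe at an unadjusted p under 0.05 in place of 4. With the replicate number as a block, 0 probes passed the adjusted p and 3 histone probes an unadjusted p under 0.05, and 2 of the 4 in the fit without the block were among them. H2bc4 had a p of 0.0543 and the dimmer H3f3a probe one of 0.0798 with the block, and H4c18 one of 0.0495. Arrays of the same number did not deviate together (correlations of -0.0133, -0.0795 and -0.154), so the numbers were not taken as pairs. Leaving out 1 array gave 0 probes past the adjusted p throughout, 1 to 10 histone probes at an unadjusted p under 0.05, a median difference of 0.0023 to 0.15 for replication-dependent genes (lowest without control replicate 1, highest without control replicate 3), of -0.02 to 0.09 for variant genes, of -0.063 to 0.022 for the chaperone list and of -0.10 to 0.11 for the S phase list. Probes with differences near 0 changed sign in some of these fits. Their ranges were -0.10 to 0.18 for H2ax, -0.18 to 0.10 for Macroh2a1, -0.063 to 0.24 for H2aj, -0.016 to 0.10 for H2az1, -0.086 to 0.10 for the brighter H3f3a probe and -0.031 to 0.018 for H2ac24.

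With probe IDs as deposited, which gives each displaced ID the values of another line, the sign was opposite for H2aj (-0.025), Macroh2a1 (0.036), the dimmer H3f3a probe (0.076), H3c8 (-0.0064), the dimmer H3c14 probe (0.59), H4c3 (0.22), H2ac4 (0.086) and H4c4 (0.22). The 2 class medians were 0.08 for replication-dependent and 0.03 for variant genes under these names. The cause of the other changes was not tested.

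Of 316 comparisons of named probes with their values under an alternative, 268 kept their direction and side of an unadjusted p of 0.05, 16 moved above it, 11 moved under it and 21 changed sign. These totals include probe IDs as deposited, with 9 kept, 1 moved above and 8 of changed sign. A displaced ID there carries the values of another line, so those comparisons do not measure how stable a probe was. Signal over background limits H3c8 and H4c14, which were above background on 4 arrays each.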

Other observations

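Hira, which encodes a chaperone for H3.3, was read by a dimmer probe as well, chosen here after its values were seen. It gave 7.49, 8.16 and 8.33 on the knockout arrays, against 7.28, 7.18 and 6.80 on the control arrays, so that all knockout arrays lay above the controls. The difference was 0.91 (SE 0.25, unadjusted p 0.0082, adjusted p 0.967 in limma), against 0.34 for the brighter probe. Of the 37 probes of the chaperone list, 1 was higher at an unadjusted p under 0.05 (2.7%), against 2.25% of all probes. The knockout arrays lay above all control arrays for 2 of the 37 (5.41%), against 4.68% of all probes.

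Germ line histone genes were at or near background. H1f6, H1f7, H1f8 and H2bc1, which encode linker and H2B proteins of testis and oocyte, were above background on 0 of 6 arrays, and H2ac1 and H2al2a on 1 each. H2ac1, for an H2A protein of the testis, read 6.05, 5.36 and 5.79 on the knockout arrays and 5.41, 6.20 and 7.14 on the control arrays, with control replicate 3 the highest.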
